A study of Homo sapiens with 6 samples.

Results

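NF-kappaB is a family of dimeric transcription factors that answer inflammatory and survival signals. The 9 genes described here encode its 5 DNA-binding subunits (NFKB1, NFKB2, REL, RELA and RELB) and 4 inhibitors (NFKBIA, NFKBIB, NFKBIE and TNFAIP3), and were chosen by gene symbol among the 26364 symbols of the count files. All 9 were in the files and all 9 passed the filter on low counts, which kept 14665 genes. The samples were 6 RNA-seq libraries of ZR-75-30, an established human breast adenocarcinoma line with amplified ERBB2. The first group was 3 libraries of cells infected with the pLVX-CDK12 lentivirus, which carries the elongation kinase CDK12, and the other was 3 libraries of cells infected with the empty pLVX lentivirus. Both groups had therefore been through lentiviral infection, and uninfected cells were not analysed here. By its title the study looked for CDK12 targets, and its 1 comparison is of the transcripts of cells with and without added CDK12. The labels call the libraries biological replicates without saying whether the infections were separate, so p-values measure only the spread between these libraries, which may be technical.

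In resting cells the subunits are held in the cytoplasm by IkappaB proteins. Kinases of the IKK complex mark IkappaB for destruction, and freed dimers of RELA with the NFKB1 product enter the nucleus (the canonical route), while the noncanonical route acts through RELB and the processed NFKB2 product. NFKBIA and TNFAIP3 are themselves textbook targets of NF-kappaB, and their proteins shut the signal off again. Most of this control acts on proteins, by degradation, processing and movement, so transcript counts do not measure NF-kappaB activity.

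CDK12 itself stood at 2009, 2240 and 2124 CPM (read counts relative to library size, scaled between libraries by TMM) in the CDK12 libraries, against 79.0, 81.8 and 72.8 CPM in the control libraries, so each library matched its label. Library totals ran from 23628890 to 26543653 counts in the CDK12 group and from 21178163 to 25014857 in the control group. At these totals the 9 members held 641 to 5232 counts in any library. Control replicate 1 stood apart in 25 interferon-stimulated genes, with a mean log2 CPM of 4.98 against 4.31 and 4.21 in the other control libraries and 2.29 to 2.36 in the CDK12 libraries. CDK12 replicate 1 differed from the other CDK12 libraries by a chi-square of 4.55 and 4.44 per degree of freedom over genes, where the other replicate pairs gave 2.74 to 2.92. Summed levels of 6 epithelial markers were 11611 to 12142 CPM in the CDK12 libraries and 13240 to 13861 CPM in the control libraries. Those of 7 leukocyte markers were 3.35 to 3.58 CPM with CDK12 and 5.36 to 6.43 CPM in controls, those of 5 fibroblast markers 60.2 to 71.1 CPM with CDK12 and 46.5 to 51.3 CPM in controls, and those of 4 endothelial markers 1.56 to 2.17 CPM with CDK12 and 2.45 to 3.29 CPM in controls. The largest part of the epithelial gap was in ERBB2, at 7357 CPM with CDK12 and 8656 CPM in controls. ERBB2, KRT8 and KRT18 were called lower, and EPCAM, KRT19 and CDH1 were not called. CDH1 went the other way, at 19.3 and 17.2 CPM. The fibroblast sum was nearly all COL1A1, at 63.8 CPM with CDK12 and 48.2 CPM in controls, while COL3A1 went the other way, at 0.109 and 0.602 CPM. The gap in the leukocyte sum came from PTPRC, at 0.358 CPM with CDK12 and 2.96 CPM in controls. It was the 1 leukocyte marker called lower, and 1 other, CD14, was called higher, at 0.852 and 0.476 CPM. None of these markers was at 0 in all libraries, and their part in the results below was not tested.

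Transcripts of 7 of the 9 members were lower in the CDK12 libraries and 0 were higher at an adjusted p of 0.05. Here and below the test is the quasi-likelihood test of edgeR, and its p-values are adjusted over all genes by the method of Benjamini and Hochberg. Among all genes tested 35.1% passed, 18.9% as lower and 16.2% as higher. The members were chosen with earlier results of these data known, so the count describes these genes and cannot show an excess. At an unadjusted p of 0.05 the edgeR test put 1 member, REL, higher. DESeq2 called 0 members higher at an adjusted p of 0.05. The 7 were RELB, NFKBIE, NFKBIA, NFKB1, NFKB2, NFKBIB and TNFAIP3. The median log2 fold change of the 9 members was -0.18, against 0.00 over all genes tested, and their median size of change was 0.18 against 0.14. Every change was small: the largest, those of NFKBIE and RELB, came to 0.81-fold, and 0 members passed a test against a fold of 1.2. In 6 of 9 members the groups' libraries did not overlap, which held for 45.6% of all genes. With upper-quartile factors or total counts in place of TMM, 5 members were lower and 1, REL, was higher. Under those scalings the split over all genes was also turned, with 3164 higher and 2144 lower genes for upper-quartile factors and 3324 and 2064 for total counts, against 2371 and 2772 with TMM. Fewer transcripts per cell and fewer cells that express a gene cannot be told apart in these bulk libraries.

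**Figure D1:**
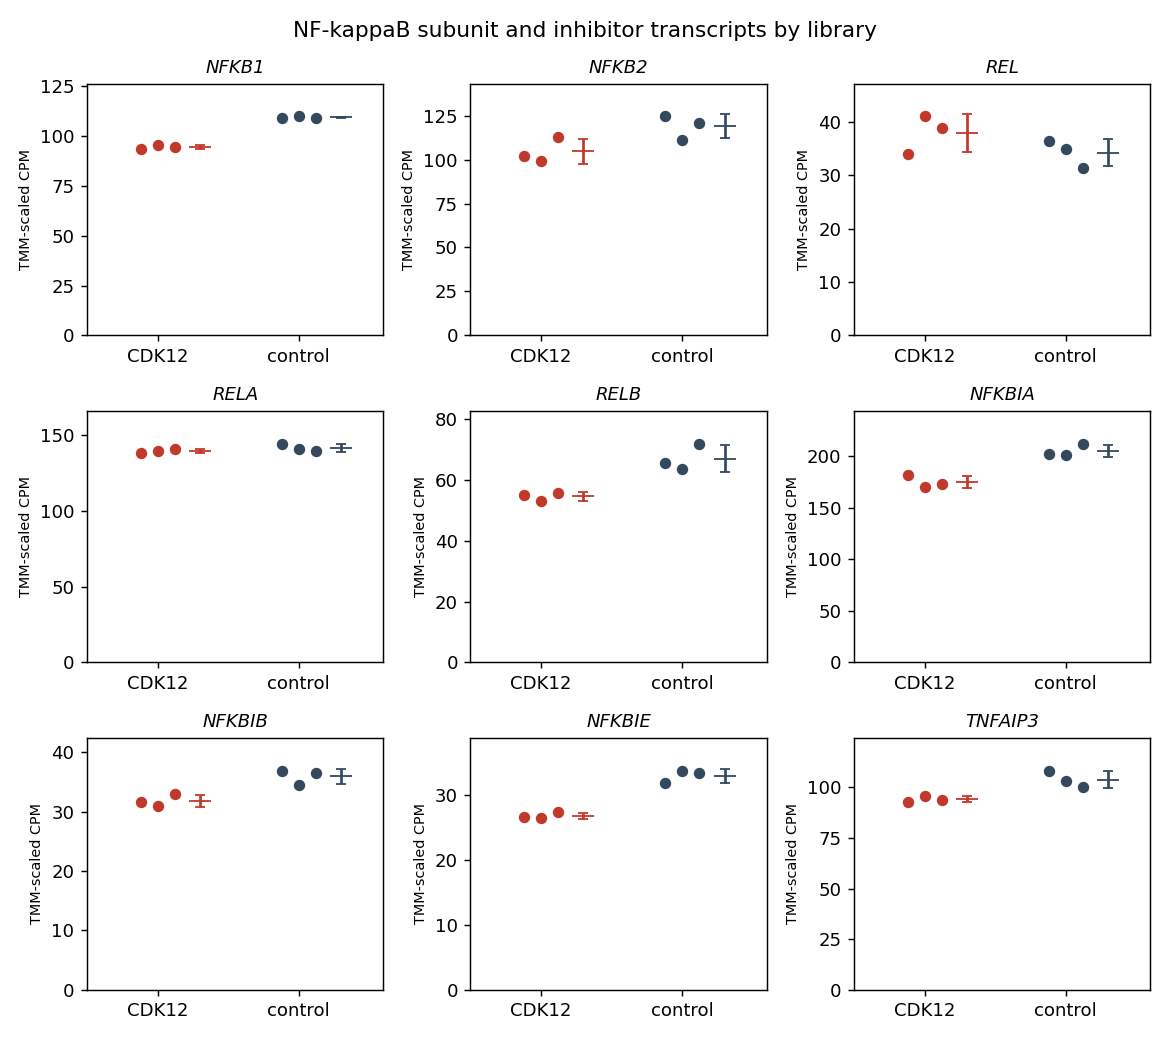
TMM-scaled CPM (vertical axes, from 0) of the 9 members in each library, with the 3 CDK12 libraries left of the 3 control libraries. Points are libraries, and the bar beside them is the mean with its SD (n = 3). The groups do not overlap for NFKB1, RELB, NFKBIA, NFKBIB, NFKBIE and TNFAIP3, and they overlap for NFKB2, REL and RELA.

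Several members carry matches to the kappaB consensus, the sequence that NF-kappaB dimers bind, just upstream of a transcript start. RefSeq start windows of 300 bases (GRCh38.p14) were matched by symbol for 7 members, 12 windows in all. No window was found for RELB or NFKBIE, so these genes were not searched. The consensus was searched on both strands, and overlapping or palindromic matches were joined. At least 1 window of 6 members, NFKB1, NFKB2, REL, NFKBIA, NFKBIB and TNFAIP3, held a match, and neither window of RELA did. Of all 35114 such windows 11.3% held a match, and of all 27303 genes with a window 13.3% did. These sequences are printed because the same letters stand before subunit and inhibitor genes alike; a match is a description of the letters and not a site shown to be bound. Capitals mark the matched bases, each sequence runs 5′ to 3′ along the gene's strand, and the coordinates are GRCh38.p14. The 150 bases before the NFKBIA start lie outside annotated exons (GENCODE 29), and 12 of the 150 before an internal NFKB2 start lie in an NFKB2 exon. For TNFAIP3, NFKBIB, NFKB1 and REL 53 to 141 of the 150 bases lie in annotated exons, so 30 bases around the match are given.
NFKBIA, chr14:35404750-35404899, minus strand: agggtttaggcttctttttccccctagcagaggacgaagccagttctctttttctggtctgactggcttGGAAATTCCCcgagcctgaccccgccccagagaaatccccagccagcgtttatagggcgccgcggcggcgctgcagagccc
NFKB2, chr10:102395555-102395704, plus strand: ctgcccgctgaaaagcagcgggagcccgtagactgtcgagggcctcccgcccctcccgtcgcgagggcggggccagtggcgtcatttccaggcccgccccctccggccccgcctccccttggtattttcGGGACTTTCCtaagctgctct
TNFAIP3, chr6:137867188-137867217, plus strand: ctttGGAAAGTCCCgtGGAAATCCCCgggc
NFKBIB, chr19:38899932-38899961, plus strand: ggcgtggtgGGGAATTTCCCgcagggcgga
NFKB1, chr4:102501300-102501329, plus strand: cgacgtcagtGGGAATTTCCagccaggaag
REL, chr2:60881518-60881547, plus strand: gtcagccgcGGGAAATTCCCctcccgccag
The NFKBIA match begins 81 bases before its start and the first TNFAIP3 match 67 bases. The NFKB1 match begins 49 bases before, the REL match 47, the printed NFKB2 match 21 and the printed NFKBIB match 28. Matches not printed lie 176 bases before the same NFKB2 start, 107 and 78 bases before another NFKB2 start, and past the NFKBIB start.

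Among the subunits, the noncanonical subunit gene RELB showed the strongest fall and the canonical RELA, the main activating subunit, did not pass the test. RELB stood at 55.3, 53.1 and 55.7 CPM in the CDK12 libraries, against 65.7, 63.7 and 72.0 CPM in the control libraries. All 3 CDK12 libraries lay below all 3 controls, and control replicate 3 was the highest of the 6. The log2 fold change was -0.30 (standard error 0.05, edgeR adjusted p = 6.44e-05). Without control replicate 3 it was -0.24 and still passed.

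NFKB1, whose precursor protein p105 is processed to the DNA-binding p50, stood at 93.5, 95.4 and 94.8 CPM with CDK12, against 109.4, 109.9 and 109.4 CPM in the controls. The groups were far apart relative to their spread, which in the controls was a coefficient of variation of 0.299%, less than the 2.00% that counting error alone would give. The log2 fold change was -0.21 (standard error 0.04, edgeR adjusted p = 0.000311), and it stayed between -0.22 and -0.17 in all 16 alternative settings. NFKB2 is the gene of p100 and its product p52; counts cannot separate precursor from product for either gene. It stood at 102.3, 99.2 and 112.8 CPM with CDK12, against 124.6, 111.4 and 121.0 CPM in the controls. CDK12 replicate 3 lay above control replicate 2, so the groups overlapped, yet the gene passed the test with a log2 fold change of -0.18 (standard error 0.05, edgeR adjusted p = 0.00515). The ratio of NFKB2 to NFKB1 counts averaged 1.11 ± 0.08 with CDK12 and 1.09 ± 0.07 in the controls (SD, n = 3 each), with overlap.

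RELA stood at 138.3, 139.3 and 140.9 CPM in the CDK12 libraries and at 144.2, 140.8 and 139.3 CPM in the control libraries. The groups overlapped, the log2 fold change was -0.02 (standard error 0.04), and its 95% interval ran from -0.10 to 0.06 (edgeR adjusted p = 0.739). The sign turned, to 0.02, under upper-quartile factors and under total counts alike. REL, the gene of c-Rel, a subunit best known from lymphocytes, was the member with the highest fold change. It stood at 33.9, 41.1 and 38.9 CPM with CDK12, against 36.4, 35.0 and 31.4 CPM in the controls, and CDK12 replicate 1 lay among the control libraries. The log2 fold change was 0.15 (standard error 0.07, unadjusted 95% interval 0.01 to 0.29, edgeR adjusted p = 0.0925). REL passed as higher without CDK12 replicate 1 (log2 fold change 0.23, adjusted p = 0.00773), with upper-quartile factors (0.18, adjusted p = 0.0333) and with total counts (0.19, adjusted p = 0.03). Its count is uncertain, because exons of a lncRNA gene on the same strand cover 43.3% of the annotated exon bases of REL in GENCODE 29, and the annotation behind the counts is not given in the sources used here.

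All 4 inhibitor genes fell, where 18.9% of all genes tested were lower. In each of the 4 inhibitor genes the 3 CDK12 libraries lay below the 3 controls. The groups did not overlap, in either direction, for 45.6% of all genes. NFKBIA, the gene of IkappaB-alpha, stood at 182, 170 and 174 CPM with CDK12, against 202, 202 and 212 CPM in the controls. The log2 fold change was -0.23 (standard error 0.04, edgeR adjusted p = 0.00011). NFKBIE, the gene of IkappaB-epsilon, stood at 26.7, 26.4 and 27.3 CPM with CDK12, against 31.8, 33.7 and 33.3 CPM in the controls. Its log2 fold change, -0.30 (standard error 0.06, edgeR adjusted p = 0.000303), was level with that of RELB.

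NFKBIB and TNFAIP3 passed with less room. NFKBIB, the gene of IkappaB-beta, stood at 31.6, 30.9 and 32.9 CPM with CDK12, against 36.9, 34.4 and 36.4 CPM in the controls (log2 fold change -0.18, standard error 0.06, edgeR adjusted p = 0.0194). It did not pass without CDK12 replicate 2 (adjusted p = 0.0765), control replicate 1 (0.0789) or control replicate 3 (0.0742). TNFAIP3, a ubiquitin-editing enzyme that dampens TNF receptor signalling, stood at 92.8, 95.8 and 93.7 CPM with CDK12, against 108.2, 103.4 and 100.1 CPM in the controls (log2 fold change -0.14, standard error 0.04, edgeR adjusted p = 0.0138). Its highest value was in control replicate 1, the library with the highest interferon-stimulated genes, and without that library it did not pass (adjusted p = 0.113). Neither gene passed under upper-quartile factors or under total counts, with adjusted p-values of 0.0626 and 0.0723 for NFKBIB and 0.0625 and 0.0779 for TNFAIP3.

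**Figure D2:**
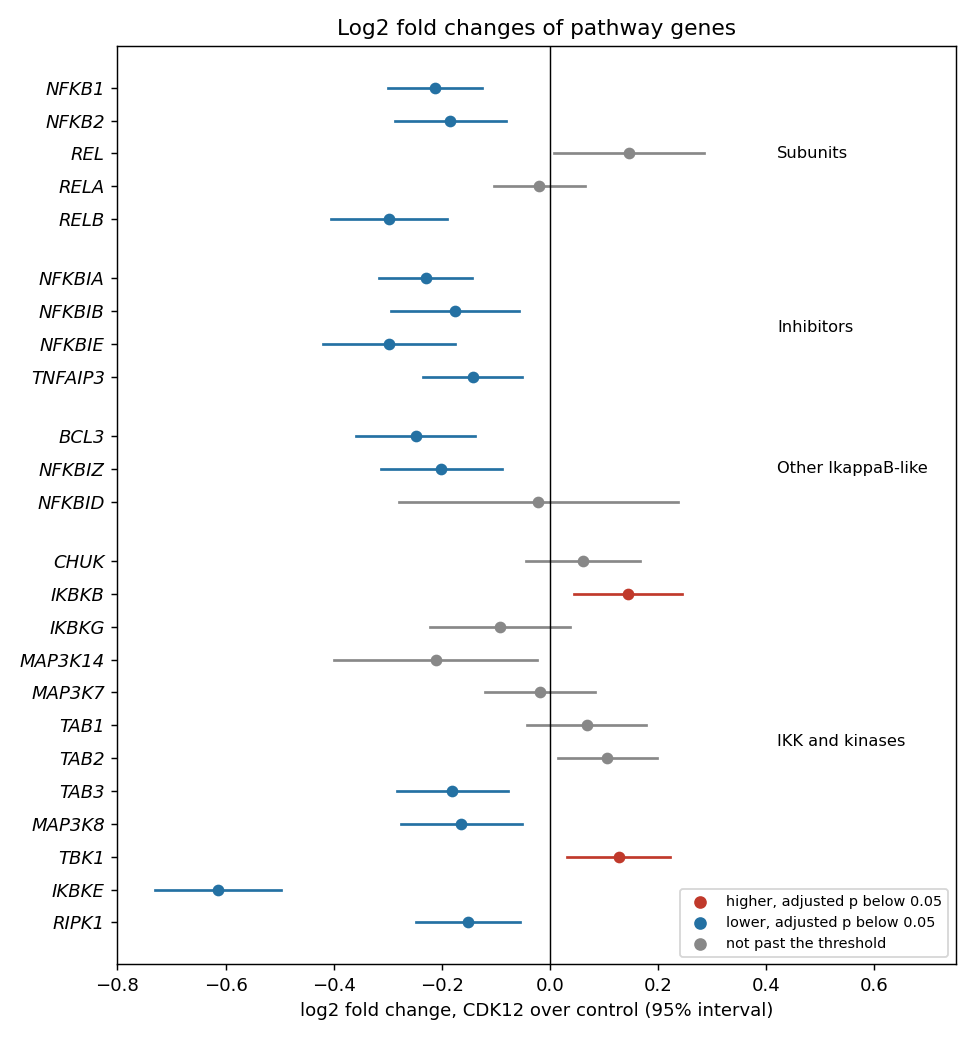
Log2 fold change, CDK12 over control (horizontal axis), with its unadjusted 95% interval. Shown are the 9 members, the 3 other IkappaB-like genes and 12 genes of the IKK complex, upstream kinases and their adaptors. Blue and red mark genes past the adjusted p of 0.05. The inhibitors all lie left of 0, RELA straddles it and REL lies to its right without passing.

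**Figure D3:**
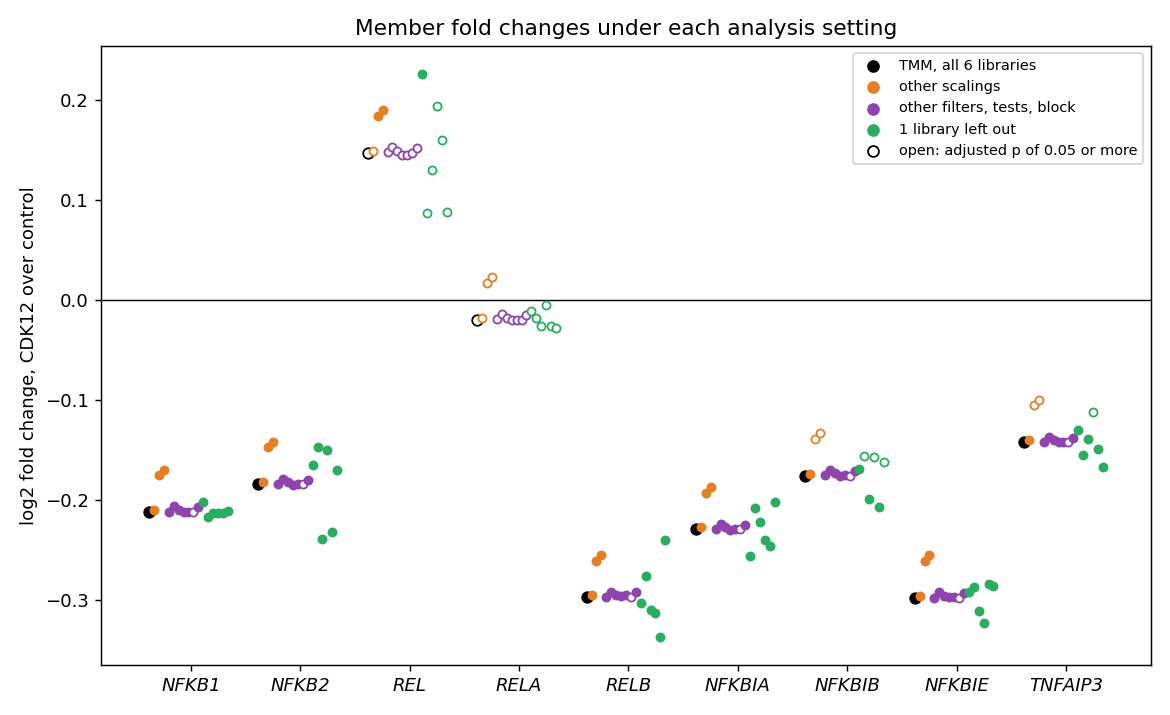
Log2 fold change of each member, CDK12 over control (vertical axis), with TMM and all 6 libraries (black) and in the 16 alternative settings; open points did not pass the adjusted p of 0.05. NFKB1, NFKB2, RELB, NFKBIA and NFKBIE stay below 0 and filled except in the test against a fold of 1.2, and RELA changes sign with the scaling.

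Ratios of counts within a library do not depend on the scaling between libraries. Set against RELA, 6 of the other 8 members were lower in the CDK12 libraries without overlap, which held for 20.4% of all other genes tested; NFKB2 and REL overlapped. The ratio of NFKBIA to RELA was 1.32, 1.22 and 1.23 in the CDK12 libraries, against 1.40, 1.43 and 1.52 in the control libraries. The ratio of RELB to RELA was 0.400, 0.381 and 0.395 with CDK12, against 0.456, 0.452 and 0.517 in the controls. That of TNFAIP3 to RELA was 0.671, 0.687 and 0.665 with CDK12, against 0.750, 0.734 and 0.719 in the controls. The ratios of these 3 genes to RELA were thus lower in the CDK12 libraries than in the controls, whatever the scaling between libraries. Summed over the members, inhibitor counts over subunit counts came to 0.787, 0.755 and 0.739 with CDK12 and to 0.790, 0.810 and 0.808 in the controls. The highest CDK12 library, replicate 1, lay just below the lowest control, replicate 1. Raw counts weigh a gene by its length as well as its level. This separation therefore holds for raw counts only, and with levels per exon length it is not kept.

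Levels of different genes can be compared only per length, here as TMM-scaled CPM per kilobase of annotated exon (GENCODE 29). NFKBIA was the most abundant member in both groups, at 73.9 ± 2.59 with CDK12 and 86.6 ± 2.50 in controls (SD, n = 3 each). RELA followed in the CDK12 libraries at 25.5 ± 0.23, then NFKB2 at 23.4 ± 1.58, TNFAIP3 at 18.6 ± 0.30 and RELB at 18.0 ± 0.46. In the controls NFKB2 (26.5 ± 1.52) and RELA (25.9 ± 0.46) did not differ beyond their spread, and RELB (22.1 ± 1.44) and TNFAIP3 (20.6 ± 0.81) came next. In both groups these were followed by NFKB1, NFKBIB, NFKBIE and REL, in that order. Of these, NFKB1 averaged 15.1 with CDK12 and 17.5 in controls, and REL 2.88 with CDK12 and 2.6 in controls. With coding length in place of exon length NFKBIA came first and RELA second in both groups, and other places changed. REL then stood at 20.1 with CDK12 and 18.1 in controls, above NFKBIE (17.9) in the CDK12 group, and NFKB1 (31.96) stood above RELB (31.1) there. The level of REL thus depends on the length used, and its place relative to the other members is uncertain.

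RELA took a larger and RELB a smaller share of the subunit transcripts in the CDK12 libraries. RELA made up 30.1% ± 0.53 of the length-scaled subunit level with CDK12 and 27.4% ± 0.77 in the controls, and RELB 21.2% ± 0.43 and 23.4% ± 1.17 (SD, n = 3 each), without overlap for either gene. REL made up 3.40% ± 0.33 with CDK12 and 2.75% ± 0.23 in the controls, also without overlap; with coding length these shares were 10.03% and 8.37%. The shares of NFKB1 (17.8% and 18.5%) and NFKB2 (27.5% and 28.01%) overlapped, though with coding length that of NFKB1, 16.0% with CDK12 and 17.1% in controls, did not. These shares sum to the whole, so they are not independent, and no test was made of them.

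**Figure D4:**
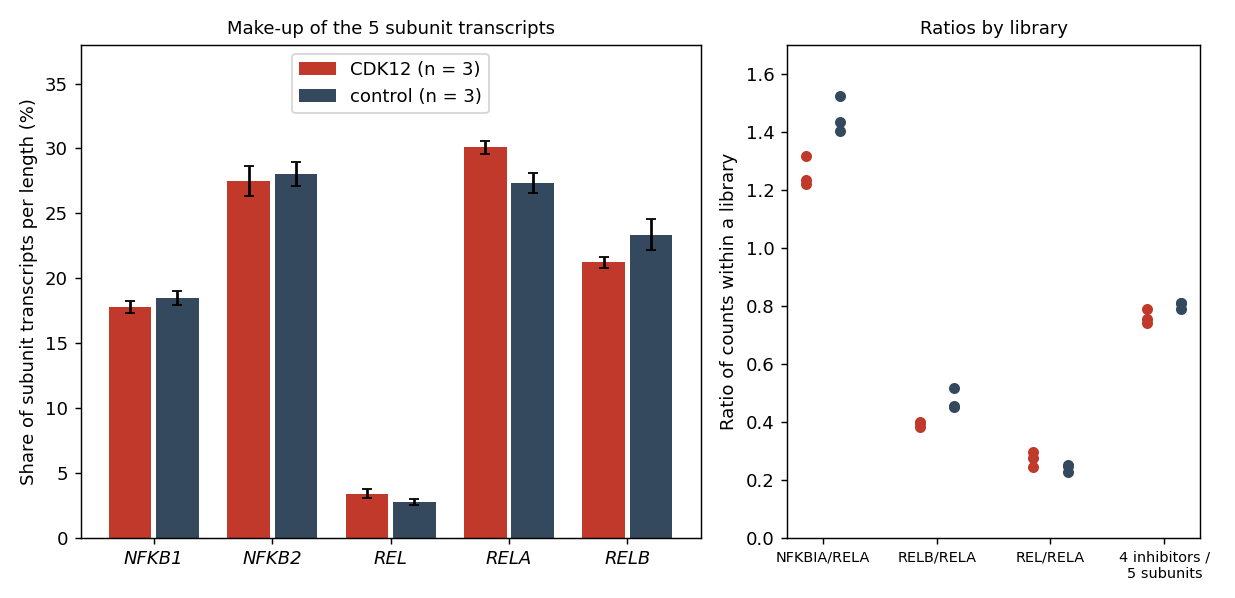
Left, share of each subunit in the summed length-scaled level of the 5 subunits (percent, bars from 0, mean with SD of 3 libraries), CDK12 left of control. Right, ratios of raw counts in each library, not scaled by length. The CDK12 points lie below the control points for NFKBIA/RELA, RELB/RELA and inhibitors over subunits, and overlap with them for REL/RELA.

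Genes nearest in pattern to RELB and NFKBIA, the members with the smallest p, were sought among 10824 genes of at least 5 CPM, by the mean absolute difference of centred log2 CPM over the 6 libraries. For RELB they were LYPLA2 (difference 0.01), ALDH16A1 (0.01) and TIMM10 (0.02), where the median gene differed by 0.15. For NFKBIA they were TESK1, HMOX2 and EEF2KMT, each at a difference of 0.01, where the median gene differed by 0.12. EEF2KMT did not pass the test itself (log2 fold change -0.24, edgeR adjusted p = 0.0559), and the other genes named here did.

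Of the 3 other IkappaB-like genes, 2 also fell, where 18.9% of all genes tested were lower. BCL3, a nuclear IkappaB-like cofactor of NFKB1 and NFKB2 products, stood at 58.8, 62.1 and 63.4 CPM with CDK12, against 74.6, 66.6 and 77.4 CPM in the controls (log2 fold change -0.25, edgeR adjusted p = 0.000666). NFKBIZ, an inducible nuclear cofactor, averaged 41.3 ± 2.12 CPM with CDK12 and 47.5 ± 0.76 CPM in the controls (log2 fold change -0.20, SD, n = 3 each). NFKBID averaged 4.50 ± 0.62 CPM with CDK12 and 4.59 ± 0.21 CPM in the controls and did not pass.

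The kinases and kinase partners above the inhibitors moved both ways. Of 12 genes of the IKK complex, upstream kinases and their adaptors, 4 fell, 2 rose and 6 did not pass. The share that passed was 50%, against 35.1% of all genes tested, 18.9% as lower and 16.2% as higher. IKBKE, an IKK-related kinase of antiviral signalling, stood at 27.2, 28.8 and 28.7 CPM with CDK12, against 43.8, 42.3 and 43.2 CPM in the controls. The log2 fold change was -0.61 (standard error 0.06, edgeR adjusted p = 2.02e-09), the largest of this list, and it passed in all 16 alternative settings. TAB3, an adaptor of the kinase TAK1, RIPK1, the scaffold kinase of TNF receptors, and MAP3K8 fell, with log2 fold changes of -0.18 for TAB3, -0.15 for RIPK1 and -0.16 for MAP3K8. The calls of RIPK1 and MAP3K8 each held in 11 of 16 settings, and both were lost without control replicate 1. IKBKB, the main catalytic IKK subunit, rose to 91.3 ± 3.95 CPM with CDK12, against 82.5 ± 4.57 CPM in the controls (SD, n = 3 each, log2 fold change 0.14, edgeR adjusted p = 0.0219), but did not pass without CDK12 replicate 2 or 3 or control replicate 2. TBK1 rose with a log2 fold change of 0.13, and its call was lost in 8 of 16 settings. The partner subunits CHUK (log2 fold change 0.06, 95% interval -0.04 to 0.17) and IKBKG (-0.09, interval -0.22 to 0.04) did not pass.

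Ubiquitin ligases, deubiquitinases and their adaptors were divided: of 18 tested, 6 fell, 3 rose and 9 did not pass. Thus 50% passed, against 35.1% of all genes tested, 18.9% as lower and 16.2% as higher. RNF31, the catalytic subunit of the ligase that builds linear ubiquitin chains, stood at 45.6, 48.4 and 48.8 CPM with CDK12, against 68.6, 60.6 and 62.3 CPM in the controls (log2 fold change -0.43, edgeR adjusted p = 6.3e-07). Its partner RBCK1 fell with a log2 fold change of -0.13, a call that held in 9 of 16 settings. TNIP1, a ubiquitin-binding partner of the TNFAIP3 protein, stood at 159, 166 and 165 CPM with CDK12, against 197, 193 and 195 CPM in the controls (log2 fold change -0.26). TRAF3, which restrains the noncanonical route, fell with a log2 fold change of -0.19. TRAF5 rose to 93.3 ± 3.22 CPM with CDK12, against 76.0 ± 2.47 CPM in the controls (SD, n = 3 each), and TRAF1 to 7.98 ± 0.29 CPM against 6.03 ± 0.24 CPM.

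Receptors and adaptors that feed the pathway also went apart: of 22 genes 18 were tested, 5 fell, 4 rose and 9 did not pass. Again 50% of those tested passed, against 35.1% of all genes, 18.9% as lower and 16.2% as higher. CD40, TNFRSF11A, TNFRSF13C and TLR4 were below the filter. TLR5, the receptor for bacterial flagellin, stood at 46.9, 45.9 and 46.6 CPM with CDK12, against 28.1, 30.0 and 26.5 CPM in the controls (log2 fold change 0.72, edgeR adjusted p = 1.56e-10). IL1R1, the interleukin-1 receptor, stood at 484, 500 and 489 CPM with CDK12, against 412, 425 and 408 CPM in the controls (log2 fold change 0.24). TLR2 fell to 15.4 ± 0.50 CPM with CDK12, against 22.04 ± 1.99 CPM in the controls (SD, n = 3 each), and the receptor gene TNFRSF12A fell by 0.28 on the log2 scale. The shared adaptor MYD88 and its kinase IRAK1 each fell with a log2 fold change of -0.26. MYD88 was highest in control replicate 1, at 59.2 CPM against 52.0 and 52.4 CPM in the other controls.

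Of 35 NF-kappaB target genes 29 were tested, of which 16 fell, 6 rose and 7 did not pass. Thus 75.9% of those tested passed, against 35.1% of all genes, 18.9% as lower and 16.2% as higher. The median of the target genes' log2 fold changes was -0.27, against 0.00 over all genes tested. This list and those above were chosen with earlier results of these data known. Their shares and medians therefore describe the listed genes only and cannot show an excess of calls. The largest changes on this list exceeded those of any subunit or inhibitor. Of these genes CXCL10, LTB, TNF and LTA stood at a lower CPM than any member in every library. CXCL10, a chemokine gene that interferon also induces, stood at 0.595, 0.453 and 0.834 CPM with CDK12, against 3.38, 2.49 and 2.11 CPM in the controls (log2 fold change -2.08, edgeR adjusted p = 1.26e-07), with the highest value in control replicate 1. LTB, TNF and CCL2 also fell. LTB averaged 8.34 CPM with CDK12 and 19.4 CPM in controls (log2 fold change -1.21). TNF averaged 3.24 and 6.91 CPM (-1.10), and CCL2 18.6 and 37.4 CPM (-1.01). LCN2, the gene of the iron-withholding protein lipocalin, rose, at 148, 137 and 149 CPM with CDK12, against 82.7, 84.9 and 87.8 CPM in the controls (log2 fold change 0.77, edgeR adjusted p = 2.32e-13). LTA rose to a mean of 5.07 CPM with CDK12, against 1.71 CPM in controls (log2 fold change 1.59). CCL5, IL1A, IL1B, CSF2, VCAM1 and PTGS2 were below the filter. CXCL10, LTB, TNF, CCL2, LCN2 and LTA passed in all 16 alternative settings.

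**Figure D5:**
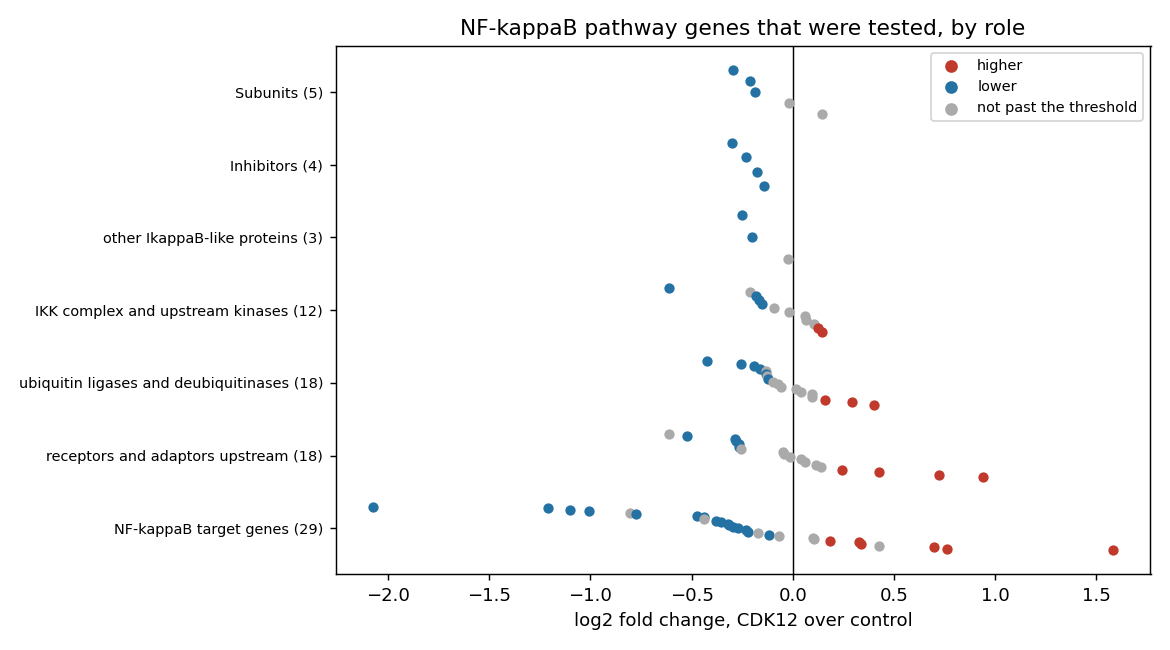
Log2 fold change, CDK12 over control, of each tested gene by role (1 point a gene, number tested in brackets). Red and blue mark genes higher and lower past the adjusted p of 0.05; subunits and inhibitors lie between -0.30 and 0.15, target genes between -2.08 and 1.59.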

How the data were processed

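The files hold counts of reads per gene symbol, deposited by the authors as whole numbers and not normalized. CASAVA 1.8, then the aligner STAR 2.6.0c, and the counter featureCounts of Subread 1.6.2 are named in the submitters' processing notes, as is build hg19. The sources used here give no annotation, strand setting or treatment of shared reads. Per the labels' protocols, polyadenylated RNA went into a strand-marking library read from both ends. edgeR 4.0.16 (filterByExpr, minimum count 10, total 15) kept 14665 genes. TMM scaling and the two-sided quasi-likelihood test with group as its only term followed, with Benjamini-Hochberg adjustment over all genes and a threshold of 0.05. The SE is the log2 fold change over the square root of F. A count of 3 is 0.113 to 0.142 CPM, counting error only. DESeq2 1.42.0 and limma 3.58.1 were alternatives. Exon lengths and start windows came from GENCODE 29 and RefSeq on GRCh38, matched by symbol, and not from the build of the counts. All 99 symbols of the lists were found. The members and lists were chosen with earlier results of these data known. The rule named all members, the IKK subunits, the 3 IkappaB-like genes, and from each list up to 4 genes of smallest p in the main direction and 2 in the other; MYD88 and CXCL10 fell under it.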

Additional observations from a re-analysis of the deposited data

How the results depend on the processing

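The 7 falls and the other member results were recomputed in 16 settings: 3 scalings, 2 filters, 2 other tests, the replicate block, a test against a fold of 1.2, CDK12 left out, and each library left out. RELB, NFKBIE, NFKBIA, NFKB1 and NFKB2 passed in 15 of 16, all but the test against a fold of 1.2. In that test the adjusted p was 0.607 for RELB, 0.648 for NFKBIE and 1 for the others (fold changes as before: -0.30, -0.30, -0.23 for NFKBIA, -0.21 for NFKB1, -0.18 for NFKB2 and NFKBIB, -0.14 for TNFAIP3), 0 members were lower, and 459 genes were higher and 479 lower. With upper-quartile factors and total counts the log2 fold changes were -0.14 and -0.13 for NFKBIB, -0.11 and -0.10 for TNFAIP3 (not past the threshold), 0.18 and 0.19 for REL (past it, so 1 member higher) and 0.0167 and 0.0222 for RELA (sign turned). NFKBID turned to 0.0145 and 0.0202 under the same scalings, 0.0626 without CDK12 replicate 2 and 0.017 without control replicate 1, never past the threshold. Leaving out a library gave 5 to 7 members lower and 0 to 1 higher, with log2 fold changes of -0.21 to -0.16 for NFKBIB, -0.17 to -0.11 for TNFAIP3 and 0.0871 to 0.226 for REL. The difference in the NFKB2 to NFKB1 ratio ran from -0.0187 (without CDK12 replicate 3) to 0.0555, and was -0.0146 without control replicate 2. Under upper-quartile or total-count scaling 2 genes of the kinase list, IKBKE and TAB3, were lower, and 5 ubiquitin genes were higher and 3 lower. In the test against a fold of 1.2, 1 kinase, 1 ubiquitin gene, 1 receptor gene and 6 targets were lower, and 1 receptor gene and 2 targets higher. The cause of these differences was not tested. Replicate numbers showed no sign of pairing the libraries. Deviations of same-numbered libraries correlated at -0.07 to 0.06, and those of differently numbered ones at -0.09 to 0.06. With 3 libraries a group these values cannot settle whether libraries were paired. With the replicate block 7 members were lower and 0 higher, and 2330 genes higher and 2776 lower. Depth limits REL, NFKBIB and NFKBIE most, whose counting error alone was 3.25% to 3.86% of the mean.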
